A study of Mus musculus with 12 samples.

Results

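The genes described here encode the machinery that releases neurotransmitter from synaptic vesicles. They were taken by symbol: every synaptotagmin (Syt followed by a number), syntaxin or syntaxin-binding protein (Stx, Stxbp), VAMP (Vamp followed by a number), SV2 protein, complexin and Rab3 gene, together with Syn1, Syn2, Syn3, Snap25, Syp and Unc13a. No measured value entered the choice. The rule found 65 of the 44345 gene names counted, made up of 17 synaptotagmins, 16 target-membrane SNARE genes (the syntaxins and Snap25), 8 syntaxin-binding proteins, 8 VAMPs, 4 complexins, 4 Rab3 GTPases, 7 vesicle membrane or coat proteins and the priming factor Unc13a.

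A synaptic vesicle fuses when a SNARE on the vesicle (a VAMP) zips together with SNAREs on the target membrane (a syntaxin and Snap25). Syntaxin-binding proteins and Unc13a prepare that complex, complexins clamp and then assist it, and synaptotagmins trigger it when calcium enters. Sensory neurons make these proteins in the dorsal root ganglion (DRG) and carry them along the axon to terminals in the spinal cord and brainstem, where mechanoreceptors and proprioceptors signal fast and nociceptors also release peptides from dense-core vesicles.

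RNA was sequenced from DRG of the sciatic levels of C57BL/6 mice aged 5 to 8 weeks, kept for 10 days in environmental enrichment (EE) or in standard housing (SH). No group carried a transgene, an injury or a drug per the labels. Captured libraries (3 EE, 3 SH) held neurons at least 30 µm across, picked with a laser from 16 µm sections stained with toluidine blue, 3 mice per library. Whole-DRG libraries (3 EE, 3 SH) held the complete ganglia of 2 pooled mice each, so neurons, glia and other cells together. The comparison asks whether transcripts of the release machinery differ with housing, in ganglia or in large neurons. The labels do not say that the libraries of a group came from different mice, so p-values measure only how these libraries vary, and that variation may be technical. Reads in genes numbered 19296230 to 29434351 per captured library and 11343579 to 17036481 per whole-DRG library. In bulk RNA, fewer cells of a type and less RNA per cell cannot be told apart.

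Of the 65 genes, 59 had enough reads to be tested in either preparation. Cplx3, Cplx4, Stx19, Stxbp3b, Syt8 and Vamp7-ps did not, none of them reaching more than 14 reads in a captured library or 3 reads in a whole-DRG library. Stxbp3b and Vamp7-ps are processed pseudogenes in the annotation. Cplx3 and Cplx4, which serve the ribbon synapses of the retina, had at most 4 reads in any library.

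On a scale divided by gene length, the same few genes headed the order in whole DRG in either housing. Cplx1, the complexin of fast synapses, stood at 471 ± 7.45 FPKM in EE and 486 ± 10.1 FPKM in SH (SD, n = 3 each), apart from the next gene. Snap25 followed at 288 ± 20.1 FPKM in EE and 293 ± 22.1 FPKM in SH, and Syt11, a synaptotagmin that binds little or no calcium, at 257 ± 5.14 FPKM in EE and 270 ± 5.43 FPKM in SH. In SH the ranges of Snap25 and Syt11 overlapped, so their order was not resolved.

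Between the classical calcium sensors, the fast sensor Syt2 had the higher level in whole DRG, 47.8 ± 3.72 FPKM in EE and 49.5 ± 3.00 FPKM in SH. Syt1 stood at 27.2 ± 3.27 FPKM in EE and 25.3 ± 1.78 FPKM in SH. Of the synaptobrevins, Vamp2 (140.4 ± 13.5 FPKM in EE, 140.5 ± 5.23 FPKM in SH) lay above Vamp1 (79.0 ± 1.54 FPKM in EE, 80.8 ± 1.11 FPKM in SH). The neuronal syntaxin gene Stx1a stood at 12.6 ± 0.916 FPKM in EE and 12.6 ± 0.363 FPKM in SH. At the low end, Syt10, Syt13, Syt15 and Syt17 lay under 1 FPKM in EE and in SH.

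Captured neurons gave another order. Their levels are CPM (read counts scaled to library size) per kilobase, with the gene length implied by the authors' whole-DRG FPKM. Snap25 led, at 244 ± 27.2 in EE and 190.5 ± 13.5 in SH. In SH it overlapped with Syt4, another synaptotagmin that binds little calcium, at 144 ± 15.2 in EE and 170 ± 9.75 in SH. Syt11 followed at 142 ± 3.98 in EE and 148 ± 7.41 in SH, and Cplx1 ranked next in SH, at 154 ± 14.7 in EE and 128 ± 8.72 in SH. The vesicle glycoprotein gene Sv2c ranked 5 of the genes in SH captured neurons (100.5 ± 2.94 in EE, 107 ± 7.48 in SH) and 18 in SH whole DRG. Vamp2 ranked 5 in SH whole DRG and 17 in SH captured neurons (28.8 ± 3.02 in EE, 37.9 ± 4.07 in SH). Syt1 (41.7 ± 9.08 in EE, 58.0 ± 8.94 in SH) and Syt2 (60.3 ± 11.4 in EE, 46.6 ± 7.19 in SH) overlapped in SH. Capture went with ribosomal RNA depletion, and whole DRG with a poly(A) kit and the unexplained word Sham in its column names. What each of them contributes cannot be told apart, and levels were not tested between preparations.

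**Figure D1:**
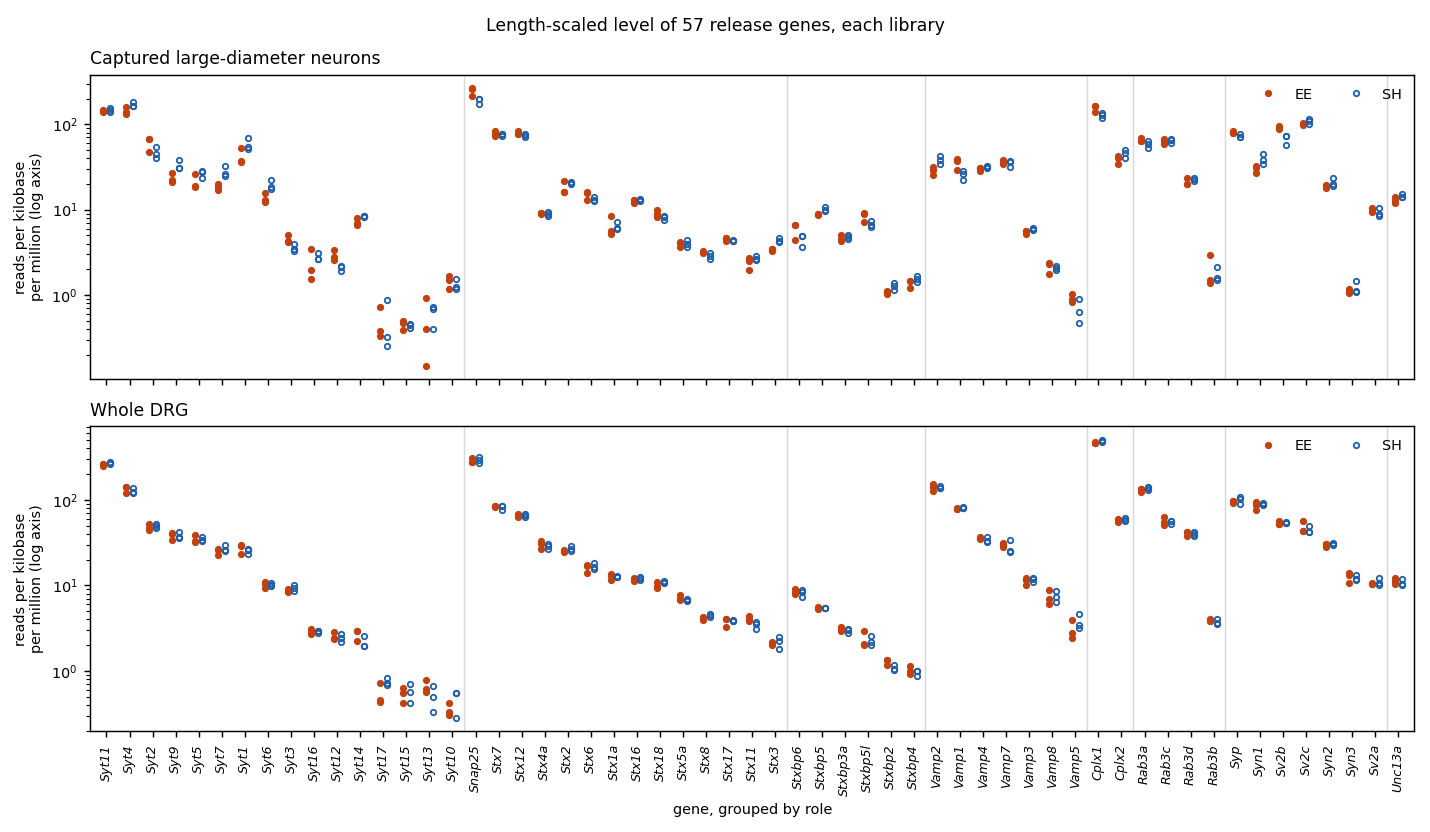
Length-scaled level (CPM per kilobase, log axis) of 57 of the genes tested in each library of captured neurons (top) and whole DRG (bottom), EE as filled and SH as open points, genes grouped by role with vertical lines between roles. In whole DRG the EE and SH points of nearly every gene lie together and Cplx1 is highest, while in captured neurons Snap25 is highest and the EE and SH points of genes such as Syt7, Vamp1 and Sv2b stand apart.

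In captured neurons none of the 59 release genes passed the threshold, an adjusted p under 0.05 (quasi-likelihood test of edgeR, Benjamini-Hochberg adjusted over all genes tested, smallest adjusted p = 0.0898), where 0.0185% of all genes tested passed. Among the genes with the smaller unadjusted p-values, Sv2b, Snap25, Vamp1, Cplx1, Syt2 and Syt12 had higher means in EE than in SH, 1.20 to 1.38-fold, while Syt7, Syt6, Syt9, Syt1, Vamp2 and Syn1 had lower means in EE, at 0.656 to 0.758 of the SH mean. At an unadjusted p under 0.05 there were 20 of the 59 genes (33.9%), 9 higher and 11 lower in EE, against 15.9% of all 16186 genes tested (7.30% higher, 8.62% lower). The median log2 fold change of the 59 was −0.02, against −0.000592 for all genes, with 26 positive and 33 negative values (49.9% of all genes were positive). Their median absolute log2 fold change was 0.17, against 0.15 for all genes. The DESeq2 Wald test on the same counts called 10 of the 59 at an adjusted p under 0.05, where it called 3.23% of all genes: Snap25, Sv2b, Syt12 and Vamp1 on the higher side, and Syn1, Syt1, Syt6, Syt7, Syt9 and Vamp2 on the lower. With no filter on low counts edgeR called 14, against 2.48% of all genes.

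Among the synaptotagmins, not all of which bind calcium, 3 of the 16 tested were higher in EE at an unadjusted p under 0.05 (18.75%, against 7.30% of all genes). At the same cutoff 6 were lower (37.5%, against 8.62%). Of the 16, 5 had positive log2 fold changes, where 49.9% of all genes did, and 11 had negative ones. Syt7, the slow high-affinity sensor linked to asynchronous release and facilitation, had 137, 116 and 129 CPM (TMM-normalised) in the 3 captured EE libraries, against 179, 231 and 175 CPM in the 3 SH libraries. The groups did not overlap, and SH replicate 2 was the highest library. The log2 fold change was −0.61 (SE 0.11, adjusted p = 0.0898 in the edgeR fit). Syt7 lies on chromosome 19 from 10389090 to 10453180, plus strand (GENCODE vM21, GRCm38), and shares 384 exon bases with the lincRNA gene Gm26859 on the other strand. The counting is not stated to use strand, so reads of such overlapping genes cannot be told apart.

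Syt6 had 89.8, 74.3 and 71.1 CPM in EE, against 104, 132 and 101 CPM in SH (log2 fold change −0.52, SE 0.12), again without overlap. It shares 505 exon bases with Atg4a-ps. Syt9 had 108, 82.9 and 88.9 CPM in EE, against 122, 155 and 123.4 CPM in SH (−0.51, SE 0.12), also without overlap. Syt1, the main fast sensor of forebrain synapses, had 435, 299 and 313 CPM in EE, against 450, 587 and 431 CPM in SH (−0.49, SE 0.15). EE replicate 1 lay within the SH range of Syt1, so its groups overlapped. Syt4, an abundant form that binds little calcium and shares 566 exon bases with Gm26658, had 628, 511 and 556 CPM in EE, against 640, 728 and 639 CPM in SH (−0.25, SE 0.09).

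The fast sensor of hindbrain, spinal and neuromuscular synapses, Syt2, went the other way. It had 324, 457 and 470 CPM in EE, against 307, 287 and 376 CPM in SH, with EE replicate 1 inside the SH range (log2 fold change 0.37, SE 0.14). Syt12, which lacks calcium-binding residues, had 14.1, 18.5 and 15.5 CPM in EE, against 12.2, 10.9 and 11.7 CPM in SH (0.47, SE 0.13), without overlap, and shares 950 exon bases with A930001C03Rik. Outside the naming rule and picked after their values were seen, Syt3 averaged 14.2 ± 1.75 CPM in EE and 11.2 ± 0.943 CPM in SH, and Syt5 averaged 37.2 ± 7.56 CPM in EE and 46.6 ± 4.84 CPM in SH (SD, n = 3 each). They completed the 9 synaptotagmins at an unadjusted p under 0.05. Syt11, the synaptotagmin with the highest FPKM in whole DRG, had 757, 715 and 758 CPM in captured EE, against 727, 833 and 776 CPM in captured SH. Its log2 fold change was −0.07 (SE 0.07, unadjusted p = 0.342 by edgeR).

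The vesicle SNAREs Vamp1 and Vamp2 lay in opposite directions. Vamp1, the synaptobrevin of motor and large sensory neurons, had 257, 342 and 329 CPM in EE, against 228, 198 and 249 CPM in SH, with every EE library above every SH library (log2 fold change 0.46, SE 0.11, 1.37-fold). Vamp2, the main synaptobrevin of the brain, had 120, 97.3 and 113 CPM in EE, against 143, 165 and 130 CPM in SH, with every EE library below (−0.40, SE 0.10). The adjusted p was 0.129 for Vamp1 and 0.130 for Vamp2 in the edgeR fit. The other 5 tested VAMPs, which act in endosomes, the trans-Golgi network or other cell types, had unadjusted p-values above 0.05. Vamp1 lies on chromosome 6 from 125215551 to 125245964 and Vamp2 on chromosome 11 from 69088490 to 69092384, both on the plus strand.

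On the target membrane, 2 of 15 tested genes had an unadjusted p under 0.05 (13.3%, no larger a share than the 15.9% of all genes). Snap25, the SNARE that supplies a pair of helices to the complex, had 1445, 1734 and 1815 CPM in EE, against 1333, 1225 and 1358 CPM in SH (log2 fold change 0.35, SE 0.09, adjusted p = 0.129 by edgeR). All EE libraries lay above all SH libraries, and EE replicate 1 was the nearest to SH. Stx3, the syntaxin of ribbon synapses and apical membranes, had 17.4, 17.1 and 16.4 CPM in EE, against 20.7, 23.6 and 21.2 CPM in SH (−0.36, SE 0.09), without overlap. Stx1a stayed within its spread, averaging 17.1 ± 4.68 CPM in EE and 17.3 ± 2.03 CPM in SH (−0.01, SE 0.18). Added up over the 16 genes, target-membrane SNAREs took 2382, 2629 and 2733 CPM in EE and 2207, 2107 and 2259 CPM in SH, a ratio of 1.18 in which Snap25 made up most of the sum.

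Regulators of the SNARE complex had values on both sides. The complexins, which clamp and assist the zipped complex, gave Cplx1 at 301, 355 and 363 CPM in EE, against 280, 269 and 300 CPM in SH (log2 fold change 0.26, SE 0.08), with EE replicate 1 just above SH replicate 3. Cplx2 had 210, 195 and 170 CPM in EE, against 197, 254 and 228 CPM in SH (−0.24, SE 0.10), and its groups overlapped. Without SH replicate 2 the log2 fold change of Cplx2 was −0.15, and its unadjusted p stayed under 0.05 in 2 of the 6 fits that left out a library. Of the tomosyns, which compete with VAMPs for the target SNAREs, Stxbp5l had 60.5, 75.3 and 78.4 CPM in EE, against 55.3, 54.9 and 62.5 CPM in SH (0.31, SE 0.10). Stxbp5 had 110, 115 and 115 CPM in EE, against 124, 143 and 127 CPM in SH (−0.21, SE 0.07), without overlap, and its log2 fold change was −0.125 (unadjusted p = 0.0692) in the 4 libraries of lane 3 and −0.13 with length and GC content corrected. The priming factor Unc13a averaged 164 ± 12.8 CPM in EE and 184 ± 12.5 CPM in SH (−0.16, SE 0.08, unadjusted p = 0.0628). Unc13a shares 495 exon bases with Colgalt1.

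Of the 7 vesicle membrane and coat genes, 2 were higher and 1 lower in EE at an unadjusted p under 0.05, where 7.30% of all genes were higher and 8.62% lower. Sv2b, a vesicle glycoprotein that binds synaptotagmin, had 501, 549 and 520 CPM in EE, against 415, 339 and 415 CPM in SH (log2 fold change 0.43, SE 0.09, 1.34-fold, adjusted p = 0.0960 by edgeR). It had the smallest p of the higher genes, its lowest EE library (501 CPM) lying above its highest SH library (415 CPM). Its relatives Sv2c (−0.11, SE 0.07) and Sv2a (0.09, SE 0.09) overlapped between housings. Synaptophysin, Syp, had 411, 414 and 442 CPM in EE, against 396, 386 and 369 CPM in SH (0.14, SE 0.06), without overlap, and shares 875 exon bases with Gm14703. Syn1, a synapsin that tethers vesicles to each other and to actin, had 87.5, 100 and 109 CPM in EE, against 113, 153 and 126 CPM in SH (−0.40, SE 0.11), with all EE libraries below. In lane 3 alone its log2 fold change was −0.19 (SE 0.07, adjusted p = 0.214 by edgeR). None of the 4 Rab3 GTPases, which bring vesicles to the release site, had an unadjusted p under 0.05. Rab3a came nearest, at 141, 155 and 145 CPM in EE and 140.8, 122.6 and 131.7 CPM in SH (0.16, SE 0.07, unadjusted p = 0.0506).

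**Figure D2:**
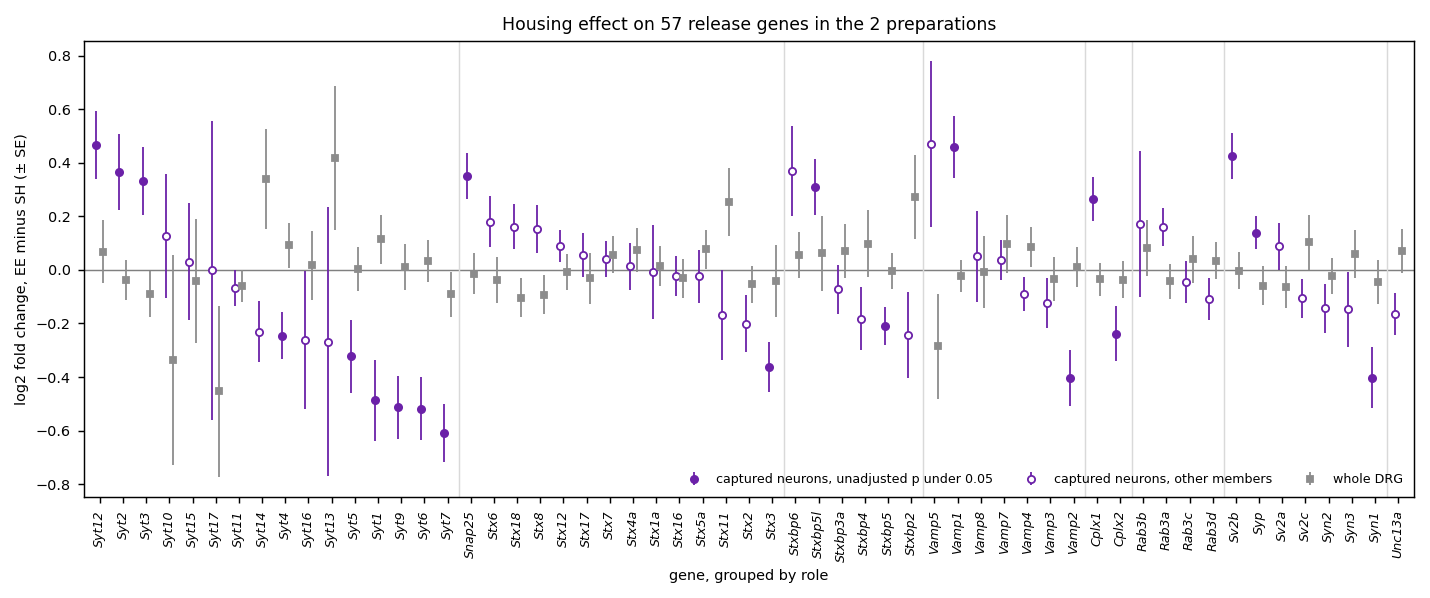
Log2 fold change of EE minus SH with its standard error for 57 of the genes tested, grouped by role, in captured neurons (circles, filled at an unadjusted p under 0.05) and in whole DRG (squares). Captured neurons spread from −0.61 (Syt7) to 0.47 (Vamp5), with 9 filled circles above and 11 below 0, and those same genes lie at most 0.114 from 0 in whole DRG.

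Promoter sequences from RefSeq (GRCm38.p6) are shown for Vamp1 and Cplx1, from the higher side, and Syn1, from the lower side, as genes whose upstream motifs differ. Each line gives the 250 bases before the RefSeq start, 5′ to 3′ on the gene's strand. They cover chr6:125215331-125215580 (plus strand) for Vamp1, chr5:108550028-108550277 (minus strand) for Cplx1 and chrX:20920919-20921168 (minus strand) for Syn1.
Vamp1: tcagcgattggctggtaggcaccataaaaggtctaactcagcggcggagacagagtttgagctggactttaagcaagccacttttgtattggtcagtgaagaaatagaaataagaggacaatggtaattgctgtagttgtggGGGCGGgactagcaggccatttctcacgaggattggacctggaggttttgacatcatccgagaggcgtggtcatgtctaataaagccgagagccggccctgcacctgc
Cplx1: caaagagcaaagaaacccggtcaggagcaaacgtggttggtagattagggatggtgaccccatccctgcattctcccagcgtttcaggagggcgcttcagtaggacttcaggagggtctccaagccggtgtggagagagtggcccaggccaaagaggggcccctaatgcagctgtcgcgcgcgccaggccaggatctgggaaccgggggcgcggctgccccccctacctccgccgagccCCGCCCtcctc
Syn1: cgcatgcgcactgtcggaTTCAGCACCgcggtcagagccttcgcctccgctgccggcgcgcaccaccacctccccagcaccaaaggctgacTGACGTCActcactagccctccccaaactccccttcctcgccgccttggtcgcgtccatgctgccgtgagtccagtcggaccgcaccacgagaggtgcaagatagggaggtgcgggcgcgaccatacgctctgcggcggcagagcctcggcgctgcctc
Capitals mark a GC box (GGGCGG on the gene's strand in Vamp1, on the other strand in Cplx1), and in Syn1 a stretch of the RE1 that the repressor REST binds (TTCAGCACC) and a cAMP response element (TGACGTCA).

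Both strands were searched for these 3 motifs and for TATAAA in the 49 release genes that had a RefSeq entry, and in the same window of 27025 genes. The RE1 stretch occurred in Syn1 and in no other of the 49, against 0.348% of all genes. The cAMP response element occurred in Syn1 and Stxbp3a, against 1.77% of all genes. The GC box occurred in 36 of the 49 (73.5%), against 35.4% of all genes, among them higher genes (Vamp1, Cplx1, Syt2, Syp, Stxbp5l) and lower genes (Syt1, Syt6, Syt9, Stxbp5). TATAAA occurred in 4 of the 49, Rab3b, Stx2, Stx3 and Sv2b, against 14.3% of all genes. A match describes letters in this window and is not a measured binding site.

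Captured libraries were not equally far apart. For 18 of the 20 genes at an unadjusted p under 0.05, EE replicate 1 was the EE library nearest to SH, and for 18 of the 20, SH replicate 2 was the SH library farthest from EE. EE replicate 1 was sequenced in lane 1, SH replicate 2 in lane 2 and the other 4 captured libraries in lane 3. Without EE replicate 1, 16 of the 59 genes passed the threshold, 8 higher and 8 lower, against 3.64% of all genes. Within lane 3 alone, 15 passed, 7 higher and 8 lower, against 4.06% of all genes. The higher ones in lane 3 were Vamp1, Snap25, Sv2b, Syt2, Cplx1, Stxbp5l and Stxbp6 (amisyn), with log2 fold changes of 0.31 to 0.49, and the lower ones Syt1, Syt7, Syt9, Syt6, Stx2, Syt5, Vamp2 and Syt4, at −0.53 to −0.26. Stxbp6 and Stx2 were named after their values were seen. In fits that left out a captured library, the unadjusted p was above 0.05 at least once for Syt2, Syt4, Syp, Cplx2, Stxbp5 and Stxbp5l. It stayed under 0.05 in all 6 such fits for 12 genes: Syt7, Syt6, Syt9, Syt1, Syt12, Vamp1, Vamp2, Snap25, Stx3, Cplx1, Sv2b and Syn1. Syt3 and Syt5, also among the 20, were not among the named genes summarised over these fits.

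Groups did not overlap for 22 of the 59 genes in captured neurons (10 with EE above, 12 with EE below), or 37.3%, against 21.1% of all genes tested (10.2% above, 10.9% below). Without SH replicate 2, 7 genes rather than 11 were lower at an unadjusted p under 0.05. In that fit 13 of the 59 were under 0.05 in either direction, against 9.33% of all genes. With every library the share of all genes was 15.9%.

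Markers of sensory neuron classes moved with the same libraries. The 13 markers of large-diameter neurons, among them the neurofilament genes and Pvalb, summed to 10830, 14500 and 14780 CPM in captured EE and 9767, 8456 and 10470 CPM in captured SH. Of the 13, 12 were positive (49.9% of all genes) and 7 higher at an unadjusted p under 0.05 (53.8%, against 7.30% of all genes). Only 3 of the 13 did not overlap between housings (23.1%, against 21.1% of all genes), and Nefh, Nefm and Pvalb overlapped. The 13 nociceptor markers, among them Scn10a and Trpv1, summed to 3901, 3104 and 3257 CPM in EE and 4218, 4781 and 3985 CPM in SH, with 11 of the 13 negative. At an unadjusted p under 0.05, 9 were lower (69.2%, against 8.62% of all genes) and 1 (Calca) higher (7.69%, against 7.30%). Of the 13, 9 did not overlap between housings (69.2%, against 21.1% of all genes). EE replicate 1 lay nearest to SH and SH replicate 2 farthest from EE in these sums too, as for the release genes. Nociceptor markers were present in every captured library although neurons had been picked by diameter. The part of these neuron classes in the values of the release genes was not tested.

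Markers of other cells in captured neurons were also at measurable levels. Satellite glia markers (7 genes) summed to 2716 to 2972 CPM in EE and 2161 to 2427 CPM in SH, with 6 of the 7 positive. Their median log2 fold change was 0.08, and 1 of the 7 passed the adjusted threshold of edgeR, where 0.0185% of all genes did. Only Apoe (means of 1623 CPM in EE and 1264 CPM in SH) and Fabp7 (269 and 154 CPM) did not overlap between housings. Myelinating Schwann cell markers (8 genes) summed to 833 to 1037 CPM in EE and 945 to 1159 CPM in SH, with 6 of the 8 negative. The 6 markers of all sensory neurons summed to 2995 to 3228 CPM in EE and 2839 to 2951 CPM in SH, with 3 positive and 3 negative. Skeletal muscle markers (4 genes) summed to at most 4.16 CPM in the captured EE libraries, against 518 CPM in SH replicate 2 and at most 4.44 CPM in the other SH libraries. Macrophage markers (5 of 6 positive) summed to 37.0 to 45.7 CPM in EE and 28.4 to 43.7 CPM in SH, endothelial markers (4 of 4 positive) to 48.5 to 54.3 CPM in EE and 42.7 to 47.5 CPM in SH, and fibroblast markers (4 of 5 negative) to 266 to 319.5 CPM in EE and 223 to 335 CPM in SH. The 2 erythrocyte markers in the tables summed to at most 7.21 CPM in EE and 8.69 CPM in SH. No listed marker found in the tables was at 0 in all libraries of a preparation, and the part of these lists in the release genes was not tested.

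**Figure D3:**
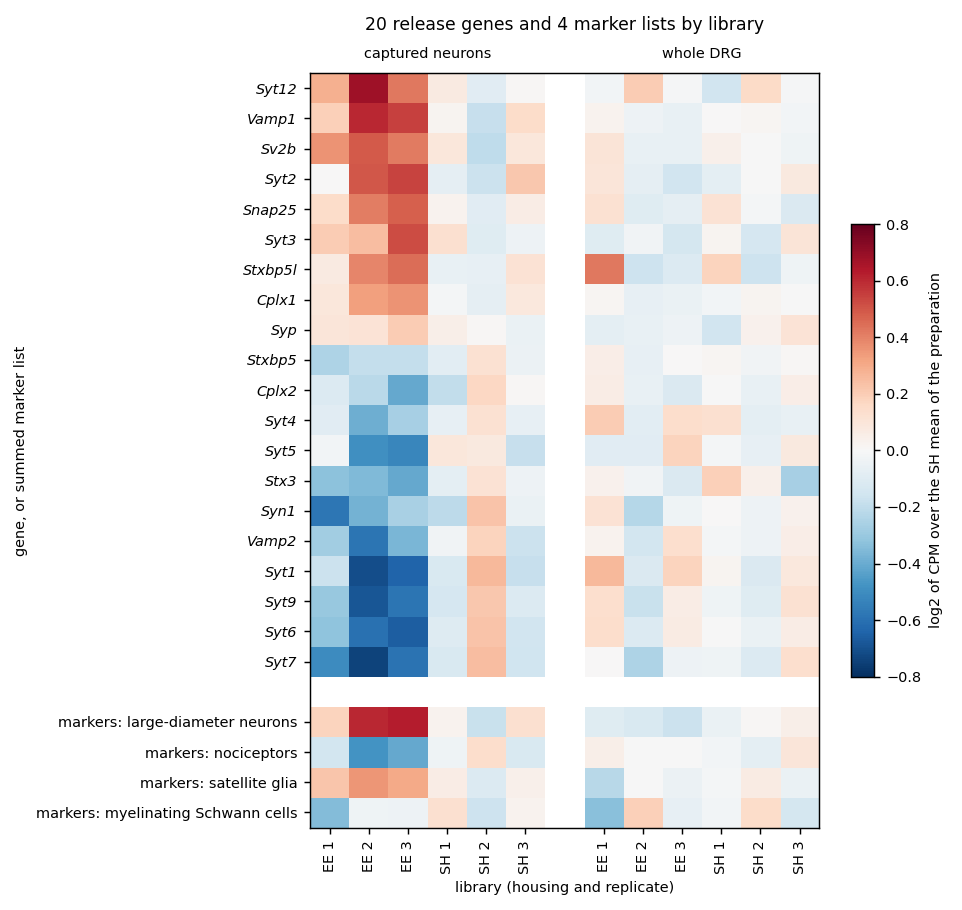
Log2 of CPM over the SH mean of the same preparation for the 20 release genes at an unadjusted p under 0.05 in captured neurons, and below them 4 summed marker lists, in each captured library (left) and each whole-DRG library (right), EE before SH. EE replicates 2 and 3 of the captured neurons have the deepest colours in release genes and in neuron markers, SH replicate 2 the opposite ones, and whole DRG is pale for nearly all genes.

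The summed abundance of the machinery was close between housings. All 65 genes took 9277, 9484 and 9813 CPM in captured EE and 9076, 9667 and 9355 CPM in captured SH, a ratio of 1.02, with overlapping groups. The 9 higher genes took 3326, 3959 and 4049 CPM in EE and 3039, 2781 and 3152 CPM in SH. The 11 lower genes took 1989, 1641 and 1715 CPM in EE and 2143, 2619 and 2142 CPM in SH. These 20 were picked by this same contrast, so their sums describe the size of the shift and test nothing.

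Ratios of family partners within a library do not depend on library scaling. They were computed for 4 pairs in each preparation, chosen after the values were seen. The p-values for captured neurons therefore only describe how the ratios separate and give no independent support. Vamp1 and Vamp2 already lay apart in opposite directions there, so the separation of their ratio was fixed in advance. Vamp1 reads per Vamp2 read were 2.13, 3.52 and 2.91 in captured EE and 1.59, 1.20 and 1.92 in captured SH, a 1.81-fold difference, with all EE libraries above (exact permutation test, two-sided, p = 0.1, the smallest that 3 against 3 libraries allow). Sv2b per Sv2c was 1.15, 1.19 and 1.15 in EE and 0.942, 0.646 and 0.856 in SH (1.45-fold), and Cplx1 per Cplx2 was 1.43, 1.82 and 2.13 in EE and 1.42, 1.06 and 1.31 in SH (1.41-fold), each with p = 0.1 in the same exact test. The Cplx1 ratio of EE replicate 1 lay just above the highest SH ratio.

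Syt2 reads per Syt1 read were 0.746, 1.53 and 1.5 in captured EE and 0.683, 0.490 and 0.874 in captured SH (exact p = 0.2). These ratios are not divided by gene length, so they do not give which gene was more abundant. Per kilobase, Syt2 (54.5) lay above Syt1 (51.5) in captured SH replicate 3 as well as in EE replicates 2 and 3. In whole DRG the EE and SH libraries overlapped for each of the 4 ratios, and the exact p-values were 0.3 or more. Vamp1 per Vamp2 averaged 1.30 ± 0.136 in EE and 1.32 ± 0.0638 in SH (SD, n = 3 each). Compared within a lane, Syt2 per Syt1 was lower in EE in 3 of 3 lanes, at 1.447, 1.665 and 1.283 in EE and 1.501, 1.744 and 1.61 in SH (exact paired permutation test, two-sided, p = 0.25, the smallest that 3 pairs allow), while the other 3 ratios differed in direction between lanes.

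**Figure D4:**
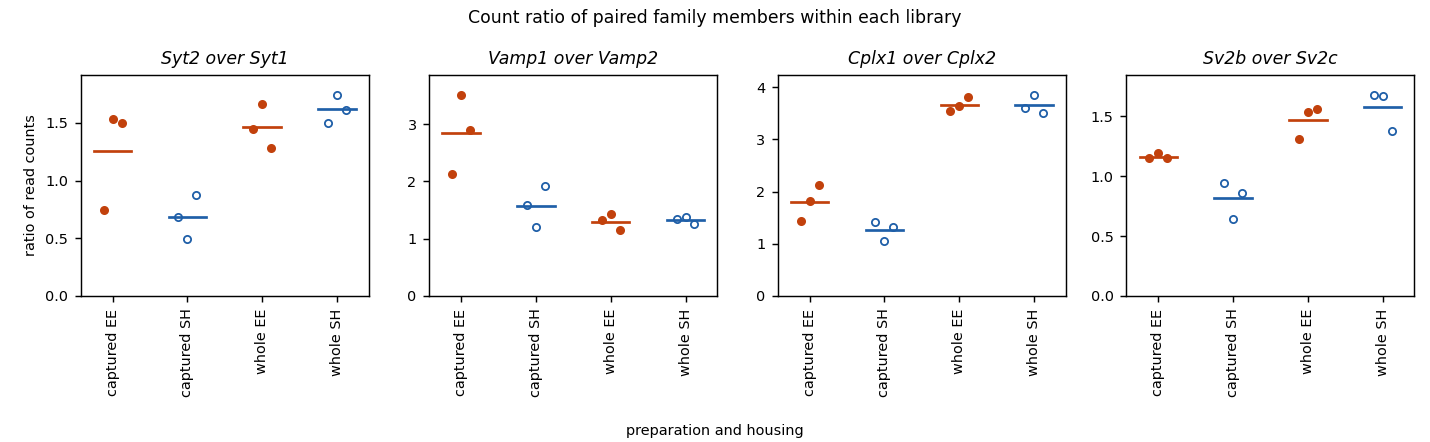
Ratio of read counts of 4 family pairs in each library of captured EE, captured SH, whole-DRG EE and whole-DRG SH, with a bar at the mean of 3 libraries and each axis starting at 0. In captured neurons the EE points of Vamp1 over Vamp2 and of Sv2b over Sv2c lie above all SH points, while in whole DRG EE and SH overlap for every pair.

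In whole ganglia no release gene differed with housing by a margin that passed a test. Of the 59 tested, 28 had positive (51.3% of all genes) and 31 negative log2 fold changes, with a median of −0.00338 (0.00279 over all genes) and a range of −0.45 to 0.42. None passed the adjusted threshold of the edgeR test, where 0.00631% of all genes did, none had an unadjusted p under 0.05, where 2.90% of all genes did (1.34% higher, 1.55% lower), and the DESeq2 Wald test called none at its adjusted threshold. Pairing the libraries by replicate number, which in whole DRG marks a shared lane, also gave 0 calls among them, where 0.202% of all genes passed.

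Snap25 had 2167, 1864 and 1896 CPM in whole-DRG EE, against 2165, 1978 and 1844 CPM in SH (log2 fold change −0.01, SE 0.08). Cplx1 had 1077, 1018 and 1029 CPM in EE, against 1050, 1085 and 1067 CPM in SH (−0.04, SE 0.06), and Vamp1 had 723, 689 and 682 CPM in EE, against 711, 718 and 698 CPM in SH (−0.02, SE 0.06). Syt7 had 188, 158 and 182 CPM in EE, against 183, 174 and 206 CPM in SH (−0.09, SE 0.08). EE and SH overlapped for each of these 4 genes, with libraries of a group differing by more than the group means did.

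Sv2b had 334, 298 and 298 CPM in whole-DRG EE, against 319, 309 and 303 CPM in SH (log2 fold change −0.00338, SE 0.07). Syt1 had 253, 195 and 239 CPM in EE, against 215, 195 and 224 CPM in SH (0.11, SE 0.09). It was the gene with the largest whole-DRG fold change of the 20 described for captured neurons. The other genes named in every comparison, Syp, Stx1a, Unc13a, Cplx2, Rab3a, Syn1, Sv2a, Vamp2 and Syt2, had absolute log2 fold changes of at most 0.07.

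Groups did not overlap for 3 of the 59 genes in whole DRG, 2 with EE above and 1 with EE below, against 7.48% of all genes (3.19% above, 4.29% below). These were named after their values were seen. Stx11, a syntaxin of immune cell granules, had 9.45, 9.74 and 10.4 CPM in EE, against 8.48, 8.95 and 7.44 CPM in SH (log2 fold change 0.25, SE 0.13, unadjusted p = 0.0665, the smallest of the 59). Stxbp2, the partner of Stx11 in those granules, averaged 5.42 ± 0.461 CPM in EE and 4.485 ± 0.293 CPM in SH, and Stx8, a late endosomal syntaxin, averaged 29.9 ± 0.839 CPM in EE and 31.9 ± 1.098 CPM in SH. In captured neurons Stx11 averaged 5.77 ± 1.01 CPM in EE and 6.49 ± 0.460 CPM in SH, and the groups overlapped.

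Over the 59 genes the median absolute log2 fold change was 0.17 in captured neurons and 0.06 in whole DRG, and over all genes tested it was 0.15 in captured neurons and 0.07 in whole DRG, so values lay farther from 0 in captured neurons for genes in general. The 20 genes at an unadjusted p under 0.05 in captured neurons, which that contrast itself selected, had a median of 0.04 in whole DRG, where the largest was 0.11 and the smallest unadjusted p was 0.229. The difference of the housing effect itself, captured EE minus SH over whole EE minus SH, was tested across all 12 libraries. It passed the threshold for 0 of the 59 genes by edgeR, as for 0.00% of 17412 genes, while 19 of the 59 (9 higher, 10 lower) had an unadjusted p under 0.05, against 11.7% of all genes (5.29% higher, 6.39% lower).

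Syt6 had the smallest p of that difference, at −0.56 on the log2 scale (SE 0.15, adjusted p = 0.208 by edgeR), made of −0.52 in captured neurons and 0.03 in whole DRG. Sv2b followed at 0.42 (SE 0.11), Syt7 at −0.53 (SE 0.15), Vamp1 at 0.47 (SE 0.14), Syt9 at −0.54 (SE 0.16), Syt1 at −0.61 (SE 0.20) and Vamp2 at −0.43 (SE 0.14). The 4 that were higher in captured EE with the smallest p there, Sv2b, Snap25, Vamp1 and Syt12, had whole-DRG values of −0.00338, −0.01, −0.02 and 0.07. DESeq2 called the difference for 3 of the 59, Sv2b on the higher and Syt6 and Syt7 on the lower side, where it called 0.833% of all genes. With no filter edgeR called 8, against 1.24% of all genes. Without captured EE replicate 1, 4 passed in the edgeR test (Vamp1 higher, and Syt1, Syt6 and Syt9 lower), where 1.32% of all genes did. In whole DRG the markers of all sensory neurons summed to 5148 to 5296 CPM in EE and 5421 to 5765 CPM in SH, without overlap and with 6 of the 6 negative. There the markers of large-diameter neurons summed to 13110 to 13800 CPM in EE and 14230 to 15220 CPM in SH, also without overlap. Of these markers 6 were positive and 7 negative, with a median log2 fold change of −0.015. The neurofilament genes Nefh, Nefm and Nefl made up most of that sum, with means of 2280, 5263 and 4559 CPM in EE and 2512, 5811 and 5062 CPM in SH. Only these 3 did not overlap between housings. Nociceptor markers there summed to 4061 to 4217 CPM in EE and 3859 to 4354 CPM in SH, with 9 positive and 4 negative.

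Another 57 genes of the release pathway, outside the rule by symbol, were listed for active zone scaffolds, priming, SNARE recycling, vesicle transporters and endocytosis. In captured neurons 51 of them were tested, and 7 were higher and 9 lower in EE at an unadjusted p under 0.05 (31.4%, against 15.9% of all genes), with 0 past the adjusted threshold of edgeR and 6 called by DESeq2 (Slc17a7 and Amph higher, and Unc13b, Unc13c, Rab27b and Slc17a8 lower). In whole DRG 0 of 53 tested had an unadjusted p under 0.05 in edgeR, and DESeq2 called 0. The priming factors Unc13c (108, 108 and 106.5 CPM in captured EE, against 133, 152 and 136 CPM in SH, −0.38 on the log2 scale, SE 0.07) and Unc13b (−0.29, SE 0.07) were both lower, as was Rab27b, a GTPase of dense-core and secretory granules (−0.46, SE 0.11).

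Of the glutamate transporters that fill vesicles, Slc17a7 (VGLUT1), which marks large mechanoreceptors and proprioceptors, averaged 63.2 ± 15.7 CPM in captured EE and 42.9 ± 8.12 CPM in SH (0.56 on the log2 scale, SE 0.18), with overlapping groups. Slc17a6 (VGLUT2), the transporter of most other sensory neurons, averaged 450 ± 77.5 CPM in EE and 482 ± 31.3 CPM in SH (−0.10, SE 0.11, unadjusted p = 0.386 by edgeR), also with overlap. Slc17a8 (VGLUT3), found in unmyelinated low-threshold mechanoreceptors, averaged 13.1 ± 3.77 CPM in EE and 20.6 ± 2.96 CPM in SH (−0.64, SE 0.19). Nsf, the ATPase that takes used SNARE complexes apart, averaged 538 ± 10.97 CPM in EE and 483 ± 12.1 CPM in SH (0.15, SE 0.06), without overlap. Amph, an adaptor of vesicle endocytosis, averaged 185 ± 7.93 CPM in EE and 157 ± 7.81 CPM in SH (0.24, SE 0.07).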

How the data were processed

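Read counts per gene name were deposited by the authors as 1 table per preparation. Per the submitters' processing notes the tools included HTSeq 0.6.0 and TopHat2 2.0.12 with build mm10, with no roles and no strand setting given. Of each table, 5 summary rows that name no gene were left out. FPKM of whole DRG were deposited by the authors and are proportional to the counts within a gene (largest spread of the implied length 0.0428%). The authors' second table for captured neurons, a signal equal to counts times 1 constant per library, was not used. Columns named Sham, a word the labels do not explain, were matched by housing and number.

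Each preparation was fitted with edgeR 4.0.16 in R 4.3.3 (filterByExpr, TMM, quasi-likelihood test, Benjamini-Hochberg over all genes tested, threshold 0.05), and the difference between preparations as an interaction over 12 libraries. Alternatives were DESeq2 1.42.0, its size factors in edgeR, scaling by library size, no filter, lane 3 by itself, a replicate block and each library left out in turn, and, added after seeing the data, length and GC offsets, leaving out captured libraries in the interaction, and comparing whole-DRG ratios within lanes. Common biological coefficients of variation were 0.121 in captured neurons and 0.0741 in whole DRG. Scripts were tested on simulated counts. Libraries of a group were not duplicates. Whole-DRG libraries of the same number are paired, since the labels put them in 1 lane (4, 5 or 6), and their deviations correlated at 0.327, 0.146 and 0.100. Between libraries of unlike number the correlations ran from −0.329 to 0.186, so not every same-numbered value was the higher.

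Genes named with full values were the 15 with the smallest p under 0.05 per comparison, the most abundant member of each role by FPKM, any past the threshold, and 15 genes named in every comparison, 2 of which are not reported here (the others were Syt1, Syt2, Vamp1, Vamp2, Snap25, Syp, Stx1a, Unc13a, Cplx1, Cplx2, Rab3a, Syn1, Sv2a). The members and the gene and marker lists were chosen with earlier results of these data known.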

Additional observations from a re-analysis of the deposited data

How the results depend on the processing

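In captured neurons 0 of 59 release genes passed the threshold, against 10 with DESeq2, 14 with no filter, 15 in lane 3 alone and 0 to 16 when a library was left out, 16 of them without EE replicate 1. The cause was not tested. The unadjusted count on the lower side ranged from 7 (without SH replicate 2) to 16 across left-out libraries. Over all genes, 9.33% (without SH replicate 2) to 18.3% (without EE replicate 1) were under 0.05 in either direction. For the difference between preparations 0 passed, against 3 with DESeq2, 8 with no filter and 0 to 4 across left-out captured libraries, while its unadjusted counts ranged from 4 to 11 on the higher and from 7 to 16 on the lower side. Across left-out captured libraries, 7.80% to 14.3% of all genes had an unadjusted p under 0.05 for that difference. In whole DRG the unadjusted counts ranged from 0 to 3 higher and 0 to 1 lower across left-out libraries, against 2.22% to 5.28% of all genes in either direction. Of 631 recomputed fold changes 18 changed sign, 12 in whole DRG and 6 in captured neurons, and these lay near 0. For the 18 named genes at an unadjusted p under 0.05 in captured neurons, no captured fold change changed sign. Some of their whole-DRG fold changes did. In whole DRG, Vamp2 was −0.000447 with library size alone. Left-out libraries in whole DRG gave ranges of −0.11 to 0.016 for Syt2, −0.057 to 0.085 for Vamp2, −0.085 to 0.049 for Snap25, −0.029 to 0.057 for Stx1a, −0.0011 to 0.14 for Unc13a, −0.13 to 0.039 for Syn1 and −0.11 to 0.0095 for Sv2a. In captured neurons Stx1a was 0.001646 with library size alone, 0.004531 with no filter and −0.26 to 0.12 across left-out libraries, and Sv2a was −0.008703 in lane 3 alone. The replicate block gave 0 calls among the release genes in captured neurons (21 at an unadjusted p under 0.05, where 17.7% of all genes were) and 0 in whole DRG, and changed no call. Captured replicate numbers share only a number: same-numbered deviations correlated at 0.09, −0.01 and 0.12. Depth limits the 6 genes with too few reads, which were not tested.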
